A study of Homo sapiens with 12 samples.

Results

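The genes described here encode the cytosolic ribosome, the elongation factors that work on it, and the noncoding transcripts that carry small nucleolar RNAs (snoRNAs) in their introns. Members were taken by name from the count table of the whole series: ribosomal protein symbols of the large and the small subunit, the stalk proteins RPLP0 to RPLP2, RPSA, the numbered SNHG genes, GAS5, EEF1A1, EEF1B2, EEF1G and EEF2. This gave 115 of 60664 genes, of which 86 are protein genes and 29 are noncoding hosts, and the protein genes and the hosts are kept apart throughout. The 86 protein genes comprise 43 proteins of the 60S subunit, 31 of the 40S subunit, 3 stalk proteins, 4 elongation factors and 5 paralogues (RPL3L, RPL10L, RPL36AL, RPL39L and RPS27L). SNHG32 carries the type protein-coding in GENCODE release 29 and was kept with the hosts by its name.

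RNA-seq was carried out in MDA-MB-231 cells, an established triple-negative breast cancer line, in 12 libraries. Wild-type cells without treatment in normoxia (WT normoxia), wild-type cells kept for 24 hr in hypoxia, at 1% O2 by the study's methods (WT hypoxia), and untreated CCAR2-/- cells in normoxia (KO) had 4 libraries each. CCAR2 encodes DBC1, and the knockout was made with a lentiviral CRISPR vector; whether the KO cells were 1 clone, and whether the 4 libraries came from separate cultures, is not given in the sources used here, so the p-values measure the spread between these libraries only. The methods also name replicate numbers that differ from the 4 libraries per group in the labels, and whether some of these are technical repeats was not tested. No hypoxic KO library was analysed here. The comparisons asked what 24 hr of hypoxia and what loss of CCAR2 changed, and they share the 4 WT normoxia libraries.

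Summed counts ranged from 68599412 to 213743693 per library. CCAR2, the targeted gene, stood at 147.7 to 152 CPM (counts per 1000000 of the library total, with TMM factors over the 12 libraries) in WT normoxia, at 141 to 153 CPM in WT hypoxia and at 54.6 to 60.7 CPM in KO, below every WT library. In CPM of the library sum, VIM (4481 to 5417 CPM) and AXL (969.7 to 1263 CPM), markers of a mesenchymal line, were high in all 12 libraries. CD44, FN1 and CAV1, also listed as high, read at least 530, 312 and 695 CPM, but S100A4 only 13.3 to 67.1 CPM. Of the markers listed as low or absent, ESR1, PGR and CDH1 reached at most 0.472, 0.174 and 0.263 CPM. The others were detected in every library: ERBB2 at 86.8 to 109 CPM, EPCAM at 11.8 to 18.2 CPM and GATA3 at 4.87 to 8.24 CPM. Libraries of 1 group differed by more than sampling noise: chi-square divided by its degrees of freedom was 13.8 to 105.6 between them. All levels are relative to the rest of a library, so less of these mRNAs in each cell and fewer cells that hold them cannot be told apart.

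The cytosolic ribosome joins a small 40S subunit, which reads the mRNA, and a large 60S subunit, which forms peptide bonds, and its proteins are made in matched amounts. Most of their mRNAs, and those of the elongation factors, begin with a C followed by an unbroken run of pyrimidines (C or T). This 5′ terminal oligopyrimidine (TOP) start lets mTOR signalling and the RNA-binding protein LARP1 control their translation and stability together. Several snoRNA hosts, GAS5 among them, are also TOP transcripts: their introns yield snoRNAs that guide rRNA modification, and the spliced remainder, which has little coding capacity, is typically cleared by nonsense-mediated decay when ribosomes translate it.

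The windows below are shown because they hold the shared start, or lack it in a contrasting member. Each runs from 10 bases before to 20 bases from the start site annotated in the RefSeq promoter table (build GRCh38.p14), 5′ to 3′ on the gene's strand. Capitals mark a run of at least 5 pyrimidines that opens with C within 5 bases of that site.
EEF1A1 (chr6:73521013-73521042, minus strand): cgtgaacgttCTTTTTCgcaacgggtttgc
EEF2 (chr19:3985444-3985473, minus strand): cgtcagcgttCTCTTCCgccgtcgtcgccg
RPLP0 (chr12:120201092-120201121, minus strand): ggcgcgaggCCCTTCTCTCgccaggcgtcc
RPSA (chr3:39406710-39406739, plus strand): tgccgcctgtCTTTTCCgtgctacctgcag
RPS3 (chr11:75399508-75399537, plus strand): cgagccaCTTCCTTTCCTTTCagcggagcg
RPL24 (chr3:101686699-101686728, minus strand): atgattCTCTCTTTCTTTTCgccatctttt
RPL38 (chr17:74203668-74203697, plus strand): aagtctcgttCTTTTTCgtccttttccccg
SNHG5 (chr6:85678714-85678743, minus strand): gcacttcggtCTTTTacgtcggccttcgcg
RPL36AL (chr14:49620607-49620636, minus strand): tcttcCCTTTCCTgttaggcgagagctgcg
RPS27L (chr15:63157458-63157487, minus strand): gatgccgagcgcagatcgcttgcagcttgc
GAS5 (chr1:173869026-173869055, minus strand): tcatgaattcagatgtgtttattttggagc

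Of the 115 members, 94 had an entry in the RefSeq table. Such a run lay within 5 bases of the annotated start in 53 of 69 protein members (76.8%) and in 11 of 25 hosts (44%), against 21.1% of all 35116 entries. At the annotated base itself it was found in 44 protein members (63.8%) and in 6 hosts (24%), against 4.07% of all entries. EEF1A1, EEF2 and RPSA opened directly on the run, and RPS27L had none in its window. The run of RPL36AL began 5 bases upstream and passed through the annotated start. Those of RPS3 and RPL24 did so from 3 and 4 bases upstream. RefSeq lists 1 start per gene in this table, and the start used in these cells was not measured: the GAS5 window has no run, which says only that these letters are not at this site.

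The protein members took a smaller part of the KO libraries than of the WT libraries. Their summed counts made up 7.10, 7.95, 7.92 and 7.28% of the WT normoxia libraries, 7.14, 8.41, 6.96 and 7.59% of the WT hypoxia libraries, and 6.19, 6.42, 6.51 and 6.27% of the KO libraries. Every KO library lay below every WT library, while WT hypoxia (7.52% ± 0.646, SD, n = 4) overlapped WT normoxia (7.56% ± 0.436). The hosts held a much smaller share, again with every KO library below every WT library, with 0.178, 0.195, 0.204 and 0.178% in WT normoxia, 0.184, 0.202, 0.177 and 0.189% in WT hypoxia, and 0.160, 0.169, 0.162 and 0.165% in KO. The widest 95% Wilson interval of a share reached 0.00594 percentage points to either side for the protein members, and it covers counting error only.

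Levels of different genes were compared per length, as TPM (counts per length of merged exons, scaled to a total of 1000000 in each library), in WT normoxia. On this scale EEF1A1, which brings aminoacyl-tRNA to the ribosome, stood first at 5902 ± 147 TPM (SD, n = 4), and the 40S protein RPS12 followed at 4988 ± 254 TPM. RPL8 (3698 ± 257), RPL41 (3221 ± 313) and RPS2 (3182 ± 215) came next, and RPL41 and RPS2 differed by less than their spread. The stalk protein RPLP0, which anchors the factor-binding arm of the 60S subunit, stood at 2265 ± 59.5, and EEF2, which moves the ribosome along the mRNA, at 2014 ± 91.0. Among the hosts SNHG29 (415 ± 19.9), SNHG5 (334 ± 37.5) and GAS5 (292 ± 13.7) led, all of them below most protein members. RPS29, at 29.5 ± 5.10, was the lowest core ribosomal protein by merged exons, which span 9845 nt in this gene against 677 nt in its principal transcript. Merged exons include rarely used ones and lower such values, so the order of the genes depends on the length used. With the longest transcript as the length EEF1A1 again stood first, and RPL29, RPSA and RPL5 took the places of RPL13A, RPL19 and EEF2 among the 10 highest.

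Loss of CCAR2 went with lower mRNA levels of nearly the whole set of ribosomal proteins, by a small and even amount. Of 85 protein members tested, 84 had a log2 fold change below 0, and the median was −0.30 (−18.9%), with an interquartile range of −0.36 to −0.26. By the quasi-likelihood test of edgeR, adjusted over all genes after Benjamini and Hochberg, 71 of 85 (83.5%) fell at an adjusted p under 0.05 and 0 rose, where 15.4% of all 21410 genes tested fell and 14.9% rose. Before adjustment 79 members had a p under 0.05 on the lower side and 0 on the higher, where 4247 and 4193 of all genes did. The study's second limit, a log2 fold change of 0.5 or more in size, left only RPL39L (1 of 85) called lower and 0 called higher, while 2.94% of all genes were called lower and 6.73% higher. Called is used below for genes past both limits.

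High and short mRNAs outside the rule also leaned downward in the KO, to a lesser extent. Among 2221 other genes with a mean of at least 100 CPM, 37.0% fell and the median change was −4.79%, and among the 1077 of these with a coding length under 1400 nt, 46.1% fell and the median was −7.85%. The median over all genes tested was 0.01 on the log2 scale. With the trend of the fold change over coding length removed, an alternative chosen after the data were seen, the median of the protein members moved from −0.30 to −0.20, 65 of 85 fell and 1, RPL36AL, rose (0.17). Of all 21410 genes 3088 fell and 3335 rose under this correction. The part of mRNA abundance in the change was not tested.

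**Figure D1:**
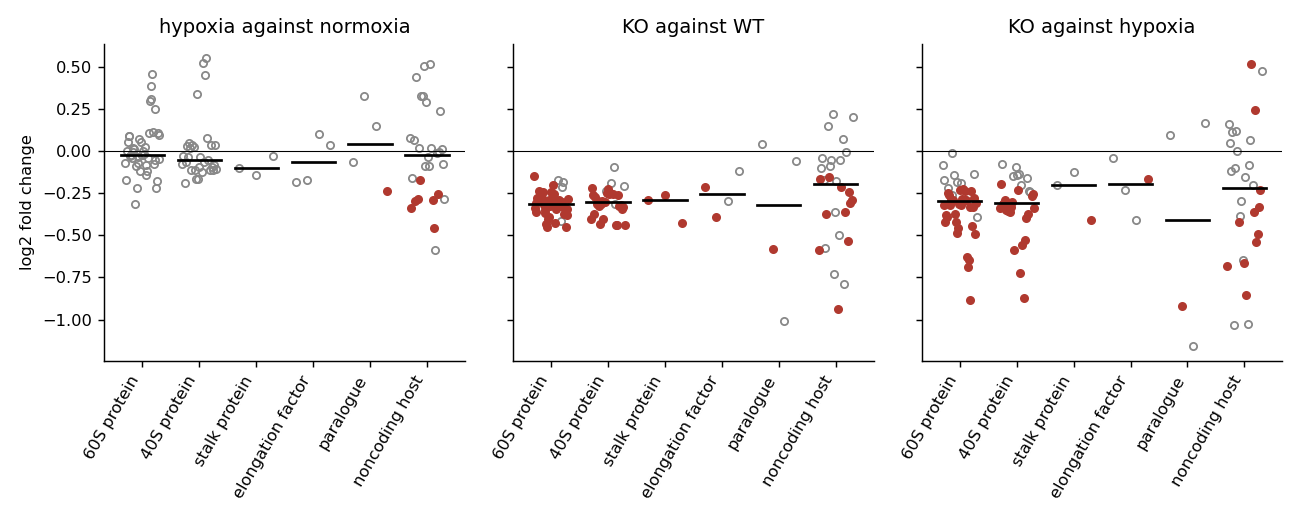
Log2 fold change of each tested member by role, in the 3 comparisons. Filled red points passed an adjusted p under 0.05 (edgeR), open grey points did not, and the horizontal bars are medians over the role. In KO against WT all 77 core proteins of the subunits and stalk lie below 0, while in hypoxia against normoxia they scatter around 0.

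By role, 39 of 43 proteins of the 60S subunit fell in the KO (median −0.31), 26 of 31 of the 40S subunit (median −0.30) and all 3 stalk proteins. The 53 tested protein members with a pyrimidine run within 5 bases of the annotated start had a median of −0.31 and the 15 without one −0.28, which is given as a description. RPSA, a 40S protein that also occurs as the laminin receptor, stood at 1822, 2084, 2027 and 1830.3 CPM in WT normoxia and at 1396, 1395, 1437 and 1347 CPM in KO. The groups did not overlap, and the log2 fold change was −0.44 ± 0.053 (SE; edgeR adjusted p = 6.56e-05; exact permutation p = 0.0286, two-sided, the smallest that 4 against 4 libraries allow). RPS3, which lines the mRNA entry of the 40S subunit and also acts in DNA repair, read 1573, 1849, 1890.0 and 1679 CPM in WT and 1207, 1263, 1326 and 1230.5 CPM in KO, again without overlap (log2 fold change −0.44 ± 0.063, edgeR adjusted p = 0.000225).

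The lowest fold changes among core proteins belonged to RPL24 and RPL7 of the 60S subunit. RPL24, which bridges the subunits, read 619, 729, 742 and 628 CPM in WT normoxia and 481, 504, 456 and 495 CPM in KO (log2 fold change −0.45 ± 0.065, edgeR adjusted p = 0.000239). RPL7 changed by −0.45 ± 0.051 and RPS3A by −0.44 ± 0.054; 61 pseudogenes are named after RPL7 and held 18.3% as many counts as the gene, so that reads may have been split between them. RPLP2 of the stalk, which read 409.9, 515, 503 and 459 CPM in WT normoxia and 313, 347, 353 and 351 CPM in KO with replicate 1 apart from the rest, changed by −0.43 ± 0.071, RPLP0 by −0.29 ± 0.049 and RPLP1 by −0.26 ± 0.061, and the difference between these was not tested.

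Core proteins that did not pass the adjusted p in the KO were RPS9, RPS21, RPS27, RPS28, RPS29, RPL36, RPL38, RPL39 and RPL41, named after their values were seen. Their log2 fold changes ran from −0.42 (RPL38, adjusted p = 0.0587) to −0.10 (RPS28, adjusted p = 0.528), all below 0. Apart from RPS9, their coding lengths are at most 315 nt. RPL38 was called lower (−0.52) without WT normoxia replicate 1.

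All 4 elongation factors were below 0 in the KO, and 2 of them passed the adjusted p. EEF1A1 read 10357, 11218, 10981 and 10039.8 CPM in WT normoxia and 9064, 8881, 9202 and 8592 CPM in KO, a log2 fold change of −0.21 ± 0.054 (edgeR adjusted p = 0.0101) between groups that did not overlap. EEF1B2, the exchange factor that reloads EEF1A1 with GTP, changed by −0.39 ± 0.044 (edgeR adjusted p = 3.2e-05), though pseudogenes named after it held 27.1% as many counts and may have shared its reads. EEF2 differed by −0.12 ± 0.046 (adjusted p = 0.0707).

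EEF1G, another subunit of the exchange complex, differed widely between replicates and read 1413, 1438, 823 and 1030.5 CPM in WT normoxia, 1528, 1313, 1041 and 1051 CPM in WT hypoxia, and 1007, 584, 1146 and 993 CPM in KO (log2 fold change in KO −0.30 ± 0.197, adjusted p = 0.3). Its correlation with the mean of the other members over the 12 libraries was 0.34, against a median of 0.916 over the protein members.

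The paralogues varied in their change. RPL39L, a variant of RPL39 that is enriched in testis and some tumours, read 10.9, 16, 16.8 and 13.1 CPM in WT normoxia, 16.6, 17.5, 17.7 and 17.6 CPM in WT hypoxia, and 7.78, 10.3, 9.18 and 9.67 CPM in KO. The KO libraries lay below all others, and the log2 fold change to WT normoxia was −0.58 ± 0.133 (edgeR adjusted p = 0.00542), which came to −0.50, just short of the fold limit, without WT normoxia replicate 3 and to −0.44 with the coding length trend removed. Its parent RPL39 differed by −0.21 ± 0.090 (adjusted p = 0.096), and the difference between parent and paralogue was not tested.

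RPL36AL, a nearly identical copy of RPL36A, read 162, 179.9, 194 and 163 CPM in WT normoxia and 174, 176, 175 and 173 CPM in KO. These groups overlapped (log2 fold change 0.04 ± 0.054, adjusted p = 0.641), whereas RPL36A changed by −0.32 ± 0.073 (adjusted p = 0.00535). RPS27L, a p53 target, read 29, 30.1, 31 and 29 CPM in WT normoxia and 30.4, 27.9, 25.4 and 27.5 CPM in KO (log2 fold change −0.06 ± 0.060, adjusted p = 0.521). Of the remaining parents, RPL3 (−0.31, adjusted p = 0.000591) and RPL10 (−0.15, adjusted p = 0.0271) fell. RPL3L, the heart and skeletal muscle form of RPL3, stayed at or below 0.23 CPM in every library, and RPL10L, the testis form of RPL10, had 0 counts in all 12, which allows at most 0.0437 CPM in the shallowest library. Reads of near-identical copies can be assigned to either copy, so these values are uncertain for RPL36A and RPL36AL in particular.

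**Figure D2:**
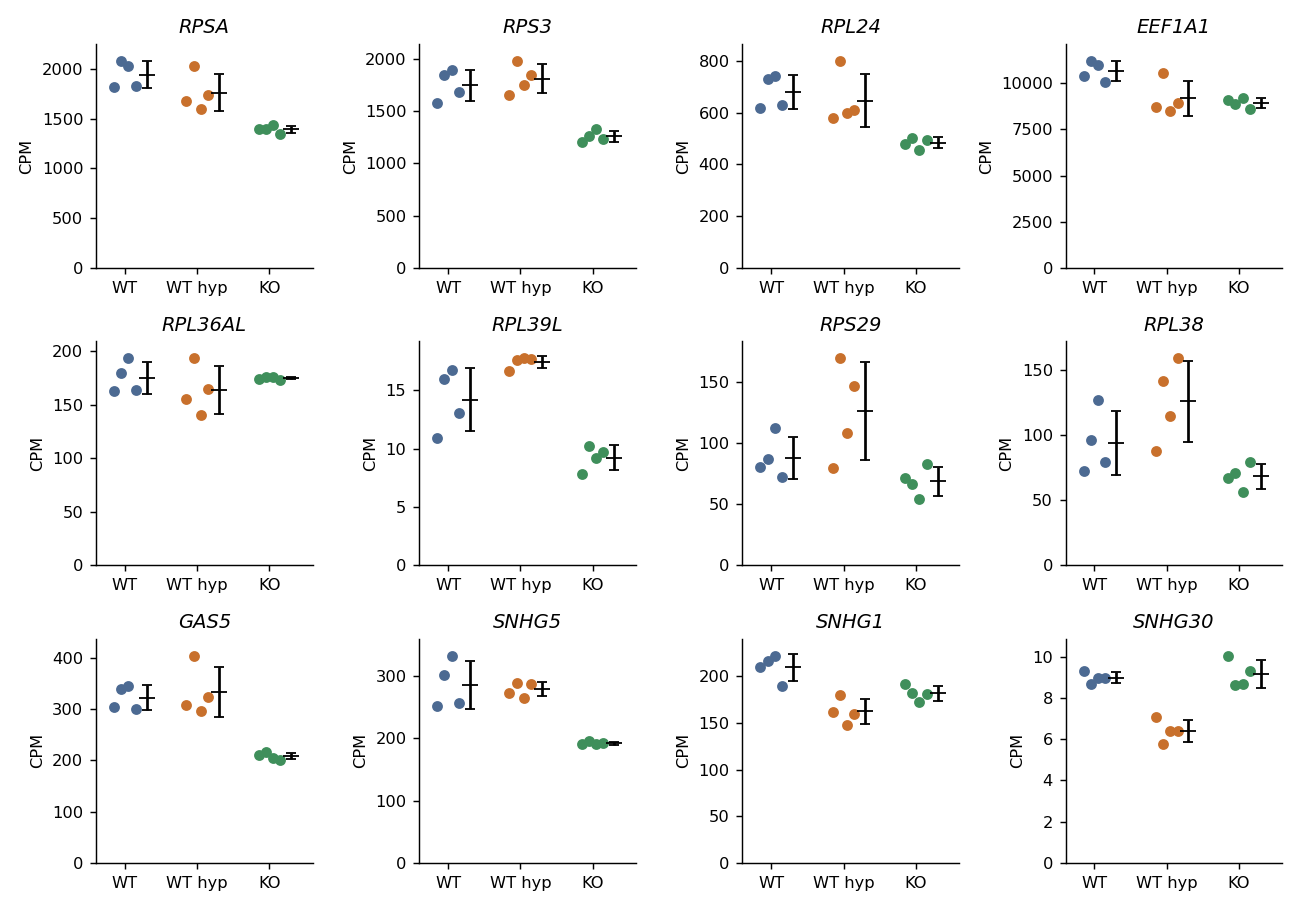
CPM of 12 members in each library of WT normoxia (WT), WT hypoxia (WT hyp) and KO, with the mean ± SD (n = 4) to the right of each group and axes that start at 0. RPSA, RPS3, RPL24, GAS5 and SNHG5 sit lower in the 4 KO libraries than in all 8 WT libraries, RPL36AL does not, and RPS29 and RPL38 spread widely in hypoxia.

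Among the hosts, GAS5 and SNHG5 fell furthest in the KO of those that are well counted. GAS5, a host of box C/D snoRNAs that accumulates when cells stop growing, read 304, 339, 345 and 299 CPM in WT normoxia, 308, 404, 296 and 323 CPM in WT hypoxia, and 210.3, 216, 205 and 201 CPM in KO. The KO libraries were close together and below all WT libraries, a log2 fold change of −0.59 ± 0.053 (−33.6%; edgeR adjusted p = 5.1e-06). SNHG5, the host of U50 snoRNAs, read 251, 301, 333 and 256 CPM in WT normoxia and 190.5, 195, 190.1 and 192 CPM in KO (log2 fold change −0.53 ± 0.077, edgeR adjusted p = 0.000252). Without WT normoxia replicate 3 the SNHG5 value was −0.46, below the fold limit.

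In all, 11 of 28 hosts tested (39.3%) fell at an adjusted p under 0.05 and 0 rose, beside 15.4% and 14.9% of all genes. Of the 2221 other genes with a mean of at least 100 CPM 37.0% fell. The share of the hosts lay near this, though most hosts did not reach 100 CPM. With the fold limit 3 hosts were called lower and 0 higher, where 2.94% and 6.73% of all genes were. The third was SNHG27, at only 0.512 to 0.667 CPM in WT normoxia (90 to 125 counts) and 0.189 to 0.379 CPM in KO (25 to 46 counts), with a log2 fold change of −0.94 ± 0.26 (adjusted p = 0.0164). SNHG15 (−0.38), SNHG32 (−0.36), SNHG7 (−0.31), SNHG8 (−0.29), SNHG6 (−0.25), SNHG3 (−0.21), SNHG1 (−0.17) and SNHG17 (−0.16) made up the rest, most of them named after their values were seen. SNHG29, the most abundant host per length, did not pass (438 to 512 CPM in WT normoxia, 429.6 to 458 CPM in KO), nor did SNHG16 (0.15 ± 0.061, adjusted p = 0.0971). SNHG9 (0.20), SNHG21 (0.22), SNHG22 (−0.73) and SNHG31 (−0.79), hosts at trace levels, did not pass either. The median of the hosts was −0.20, and SNHG18, with at most 23 counts in a library, was too low to be tested.

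**Figure D3:**
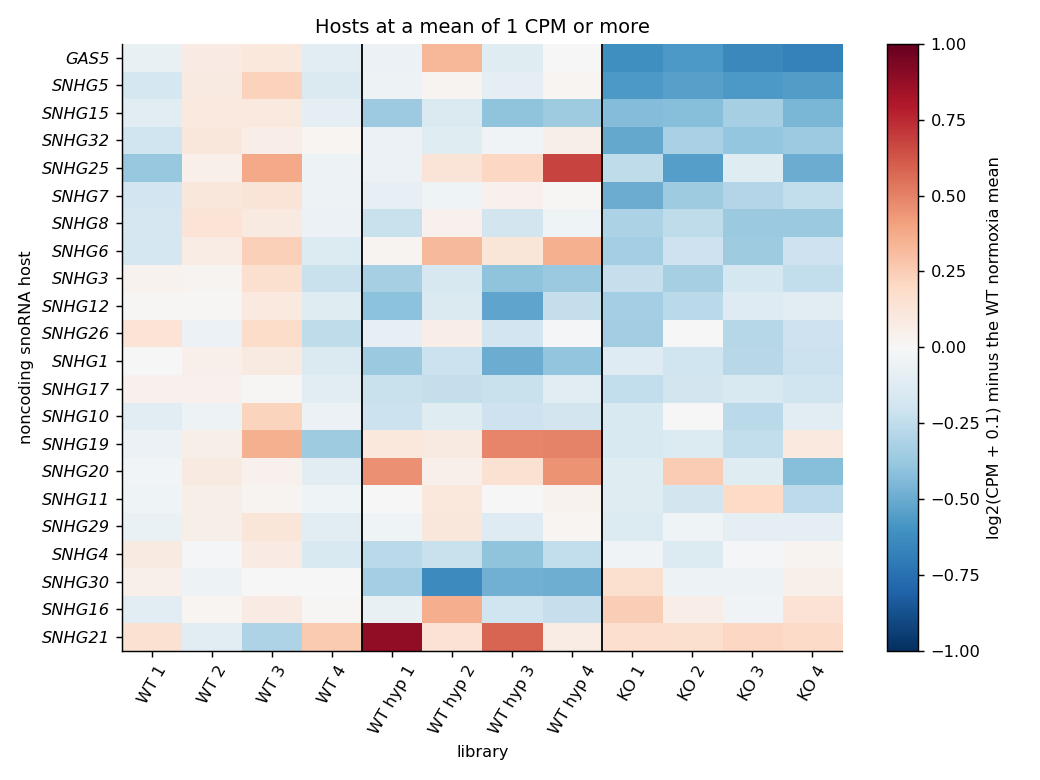
Log2(CPM + 0.1) of 22 hosts with a mean of at least 1 CPM in each of the 12 libraries, minus the mean over WT normoxia, from blue (lower) to red (higher), ordered by the KO mean. GAS5 and SNHG5 are the bluest rows in KO, while SNHG30, SNHG1, SNHG12, SNHG3, SNHG15 and SNHG4 are bluest in hypoxia.

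After 24 hr of hypoxia the protein members scattered around their normoxic levels. None of the 85 was called in either direction, where 5.83% of all 21776 genes tested were called higher and 1.43% lower. At an adjusted p alone 0 rose and 1 fell (11.6% and 12% of all genes), namely RPS27L at −0.24 ± 0.077 (adjusted p = 0.0477). Before adjustment 9 had a p under 0.05 on the higher side and 4 on the lower, where 3721 and 3958 of all 21776 genes did. DESeq2 placed 3 higher and 3 lower at its adjusted p, beside 3026 and 3188 of all genes. The median was −0.03. This comparison rested on single libraries: without WT hypoxia replicate 2 the median was −0.11 and 24 members fell, and without any other library of either group 0 fell. Without WT hypoxia replicate 2, 3658 of all 22586 genes fell. RPS3A illustrates this, with 1105, 1689, 1071 and 1175 CPM in the hypoxia libraries, replicate 2 standing apart, against 1217 to 1416 CPM in normoxia.

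The lowest protein members in hypoxia were RPL21, RPS27L, RPL6, RPL23 and RPS12. RPL21, a 60S protein, read 366, 402, 391 and 326 CPM in normoxia and 275, 405, 237 and 248 CPM in hypoxia, with replicate 2 again apart (−0.32 ± 0.151, edgeR adjusted p = 0.163), and it was called lower without that library (−0.53). As many as 72 pseudogenes are named after RPL21 and held 29.3% as many counts as the gene, so its level is uncertain. RPL6 (−0.22), RPL23 (−0.22) and RPS12 (−0.19) did not pass, nor did EEF1A1 (8724, 10534, 8484 and 8943 CPM; −0.18 ± 0.078, adjusted p = 0.117), EEF2 (0.04 ± 0.048) or EEF1G (0.10 ± 0.178).

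The 5 highest protein members in hypoxia all had a coding length under 300 nt, though RPL41 and RPL39, the shortest core proteins, were lower at 0.25 and 0.11. RPS29, a zinc-finger protein of the 40S head, read 81, 86.9, 113 and 72.7 CPM in normoxia and 80.1, 170.0, 109 and 147 CPM in hypoxia, so that the groups overlapped (log2 fold change 0.55 ± 0.204, edgeR adjusted p = 0.0758). RPS27, another zinc-finger protein of the 40S subunit, read 234, 269, 327 and 232 CPM in normoxia and 269, 473, 305 and 445 CPM in hypoxia (0.52 ± 0.174, adjusted p = 0.0513). RPL38, whose loss in mice alters the translation of Hox mRNAs, read 72.8, 96.1, 127 and 79.1 CPM in normoxia and 88.2, 142, 115 and 159 CPM in hypoxia (0.45 ± 0.192, adjusted p = 0.116). RPS28 (0.45) and RPL37 (0.39) completed the 5 highest, and none passed. Without WT hypoxia replicate 1, and likewise without WT normoxia replicate 3, these tests called 4 members higher (RPS27, RPS28, RPS29 and RPL38), with RPS29 at 0.71 and 0.69. Those fits called 1188 of all 22537 and 1106 of all 22087 genes higher. RPS27 was also called (0.61) without WT hypoxia replicate 3. With the coding length trend removed 10 of 85 members rose and 2 of them, RPS27 and RPS29, were called. Of all 21776 genes 3275 rose and 1438 were called higher in that setting.

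The 11 protein members with a coding length under 300 nt, a limit set after the values were seen, had a median change of 26.4% in hypoxia, and 10 of them were above 0. Over the 85 protein members the fold change and log2 coding length had a Pearson r of −0.44 and a Spearman rho of −0.26, across genes that share the same libraries. Relative to the WT normoxia mean, the median of these short members was −0.17, 0.03, 0.30 and −0.16 (log2) in the normoxia libraries, −0.02, 0.53, 0.20 and 0.60 in hypoxia, and −0.28, −0.32, −0.39 and −0.12 in KO, so they varied within groups as well as between them. The median over 348 other protein-coding genes of that length lay between −0.11 and 0.07 in each of the 12 libraries. In the KO 3 of the 11 short members fell (27.3%), with a median of −0.23, beside 24.0% of 358 other genes of that length.

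**Figure D4:**
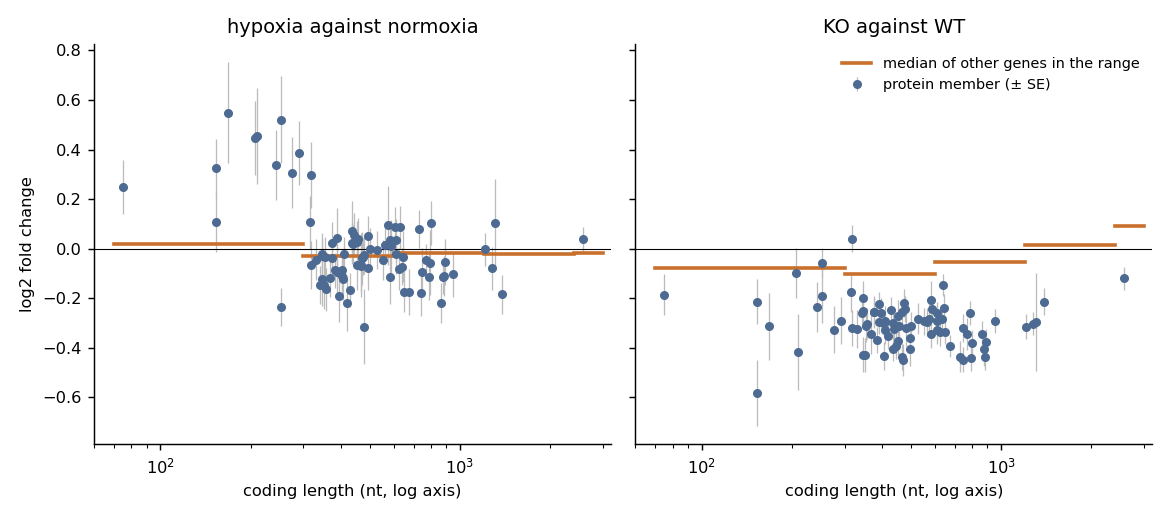
Log2 fold change (± SE) of the protein members against coding length on a log axis, in hypoxia (left) and in the KO (right), with the median of other genes that have a coding length in each length range as orange lines; RPL3L, at a trace level, is left out. Members under 300 nt lie mostly above 0 in hypoxia, and nearly all members lie below the orange lines in the KO, with RPL36AL and RPS27L above theirs.

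None of the 28 hosts tested was called in hypoxia, where 5.83% of all genes were called higher and 1.43% lower. At an adjusted p under 0.05, 7 (25%) fell, with SNHG30 and SNHG1 lowest in fold change, and 0 rose. Beside them, 12% of all genes and 25.1% of 2221 other genes with a mean of at least 100 CPM fell. The share of the hosts lay near the latter, though of the 7 only SNHG1 reached 100 CPM. SNHG1, host of the U22 cluster of snoRNAs, read 209.9, 216, 222 and 189.6 CPM in normoxia and 162, 180.0, 148 and 159 CPM in hypoxia (log2 fold change −0.34 ± 0.070, edgeR adjusted p = 0.00566). SNHG30 had 9.31, 8.67, 8.97 and 8.97 CPM in normoxia against 7.08, 5.75, 6.39 and 6.38 CPM in hypoxia (−0.46 ± 0.086, adjusted p = 0.00338). SNHG4 changed by −0.26 ± 0.063 (adjusted p = 0.0134), and SNHG12 (−0.30), SNHG3 (−0.29), SNHG15 (−0.29) and SNHG17 (−0.17), named after their values were seen, also fell. The count was 3 or 4 when WT hypoxia replicate 1 or 3, or WT normoxia replicate 1, 2 or 3, was left out. SNHG30 was called lower (−0.51) without WT hypoxia replicate 1. GAS5 (0.08 ± 0.096, adjusted p = 0.622) and SNHG5 (0.00, adjusted p = 0.979) did not pass, nor did the trace-level hosts SNHG14 (0.44), SNHG21 (0.51), SNHG28 (0.52) and SNHG31 (−0.58). SNHG31 was called lower (−1.57) without WT hypoxia replicate 3.

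KO cells in normoxia and WT cells in hypoxia differ in genotype and oxygen together, and the parts of these cannot be told apart in their direct comparison. Of the 85 protein members, 58 were lower in KO at an adjusted p under 0.05 (68.2%) and 0 higher, where 17.8% and 17.1% of all 21158 genes were; 10 were called lower with the fold limit (7.88% of all genes) and 0 higher (7.08%). Of these 10, the lowest were RPL39L (−0.92 ± 0.091, edgeR adjusted p = 1.74e-05), RPL38 (−0.88 ± 0.159), RPS29 (−0.87 ± 0.201) and RPS27 (−0.72 ± 0.165), followed by RPL37, RPL37A, RPL36A, RPS21, RPS28 and RPS3. Calls were lost for RPL36A, RPS28 and RPS3 without WT hypoxia replicate 2 (−0.49, −0.47 and −0.48), for RPS21 and RPS28 without WT hypoxia replicate 4 (−0.49 and −0.47) and for RPS3 without KO replicate 1 (−0.50). EEF1A1 (−0.04 ± 0.074, adjusted p = 0.732) and RPL21 (−0.01 ± 0.150, adjusted p = 0.959) did not pass, while RPL36AL stood at 0.09 and RPS27L at 0.17, the only members above 0.

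In that comparison 2 of 28 hosts (7.14%) were higher and 9 (32.1%) lower at an adjusted p under 0.05, beside 17.1% and 17.8% of all genes. Without WT hypoxia replicate 4, 5 were lower. With the fold limit 1 host was called higher and 4 lower, where 7.08% and 7.88% of all genes were. SNHG30 was called higher in KO (0.51 ± 0.095, adjusted p = 0.00142) and GAS5 (−0.68 ± 0.088, adjusted p = 0.000128), SNHG5 (−0.54 ± 0.046), SNHG27 and SNHG25 were called lower. SNHG30 lost its call without KO replicate 1 (0.48) or WT hypoxia replicate 2 (0.47), and under GC correction (0.43), where SNHG9 was called higher in its place (0.61). SNHG25 and SNHG27, at about 1 CPM or below, each lost theirs without several single libraries (adjusted p up to 0.0948 and 0.085). SNHG4 was also higher at an adjusted p alone, 0.24 ± 0.056, with 43.3, 44.6, 39.5 and 43.9 CPM in hypoxia and 50.9, 47.3, 51.3 and 53.1 CPM in KO.

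Over the 12 libraries the protein members followed each other more closely than the hosts followed them. The correlation of a member with the mean of the other protein members had a median of 0.916 among the 85 protein members (0.233 to 0.996), and 70 of them exceeded 0.8; RPL11 had the highest and RPS27L the lowest value. Among 28 hosts the median was 0.483 (−0.473 to 0.958), with SNHG30 at the low end. These are descriptions over libraries that share group and scaling. The genes outside the rule whose level followed the mean of the protein members most closely, of 14598 compared, were ANXA2 (Pearson r = 0.988), C12orf65 (0.983), RPA3 (0.980), BRI3 (0.978) and KRT18 (0.976).

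Genes that build ribosomes were also lower in the KO. Of 35 ribosome biogenesis genes, all were below 0 with a median of −0.24, 30 fell at an adjusted p under 0.05 and 0 rose, beside 15.4% and 14.9% of all genes and 37.0% lower among genes of at least 100 CPM. In hypoxia 15 fell and 0 rose, with a median of −0.17, beside 12% and 11.6% of all genes and 25.1% lower among the abundant ones. Among 10 RNA polymerase I genes 5 fell and 0 rose in the KO, and 4 fell and 1 rose in hypoxia, beside the same shares. POLR1B, the second largest subunit of the polymerase, was called lower in the KO at 31.6 against 54.7 CPM (−0.75 ± 0.066, edgeR adjusted p = 4.15e-06). Of all genes 2.94% were called lower there. In KO against hypoxia 7 of the 35 biogenesis genes were lower (20%) and 3 higher, beside 17.8% and 17.1% of all genes. Of the abundant ones 26.5% were lower there, so the biogenesis genes lay near these shares. In that comparison 1 of the 35 was called lower, where 7.88% of all genes were. It was FBL, the methyltransferase of box C/D snoRNPs (−0.60 ± 0.070, edgeR adjusted p = 6.2e-05). The noncoding hosts outside the rule, ZFAS1, DANCR and EPB41L4A-AS1, all fell in the KO at an adjusted p alone (median −0.20), as did 9 of 12 protein genes with snoRNAs in their introns. In hypoxia 1 of these 3 hosts and 3 of the 12 protein genes fell, and the shares over all genes are those above.

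Of 34 further elongation and initiation factors 22 fell and 1 rose in the KO (15.4% and 14.9% of all genes), and EIF1AX (−0.56 ± 0.057) and EEF1A2 (−0.56 ± 0.078) were called lower. EEF1A2, the neuronal and muscle form of the EEF1A1 factor that many tumours express, was called higher in hypoxia (92.3 against 48.6 CPM, 0.96 ± 0.063, adjusted p = 5.23e-06), where EEF1A1 stood at −0.18 ± 0.078 (adjusted p = 0.117). In hypoxia 10 of the 34 fell (29.4%) and 1 rose, beside 12% and 11.6% of all genes. Of the 2221 other genes with a mean of at least 100 CPM 25.1% fell in hypoxia, near the share of this list. In the KO 37.0% of those genes fell.

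The regulators of TOP mRNA translation moved in both directions: of 21 genes 7 rose and 5 fell in the KO (14.9% and 15.4% of all genes), and 3 rose and 6 fell in hypoxia (11.6% and 12%), so that the 5 lower in the KO and the 3 higher in hypoxia lay near the share over all genes. DDIT4, an mTORC1 inhibitor induced by low oxygen, was called higher in hypoxia (100.5 against 35.7 CPM, 1.52 ± 0.084, adjusted p = 1.59e-06) and in the KO (51.9 against 35.7 CPM, 0.58 ± 0.079). MXD1, an antagonist of MYC, was called higher in the KO (0.56 ± 0.066), and RICTOR of mTORC2 lower in hypoxia (−0.50 ± 0.077). Among 10 nonsense-mediated decay factors 1 rose and 0 fell in the KO, and 1 fell and 0 rose in hypoxia, beside the same shares over all genes.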

How the data were processed

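RNA-seq of 12 MDA-MB-231 libraries was analysed, 4 per group. Per the labels and the study's methods, the authors aligned reads with HISAT2 and counted genes (featureCounts is named in the labels, StringTie in the methods); the genome build and annotation are not given in the sources used here. The authors deposited expected counts, 1 unscaled whole number per gene and library, in which the value 4 is more frequent than 3 or 5; the cause was not tested. All 12 columns were used (0 were left out).

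Genes were filtered with filterByExpr and tested with the quasi-likelihood test of edgeR 4.0.16 in R 4.3.3 with TMM factors, on the 2 groups compared, with adjustment over all genes tested after Benjamini and Hochberg. Called means an adjusted p under 0.05 and a log2 fold change of at least 0.5 in size; exact permutation tests were two-sided. The scripts were tested on simulated data. Whether replicate numbers pair the libraries was not settled, and they were not used as a block in the main tests. CPM use TMM factors of all 12 libraries, except the marker levels and the 3-count floor, which use library sums. Gene lengths and types come from GENCODE release 29, start sites from RefSeq (GRCh38.p14).

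Members and gene lists were chosen with earlier results of these data known. Named were all called members, the 5 highest and 5 lowest protein members and 3 highest and 3 lowest hosts of each comparison, the factors, stalk proteins, RPSA, GAS5, the paralogues with their parents, and at most 5 called genes of each further list; others were chosen after their values were seen. Alternatives were DESeq2 1.42.0, limma-voom (limma 3.58.1), other scalings, filters and denominators, GC correction, a replicate block, pseudogene counts added, and leaving out each library; the coding length correction and counts divided by 4 were added after the data were seen.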

Additional observations from a re-analysis of the deposited data

Results flagged for a closer look

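Of 139 groups of 4 libraries tested over the named members, 6 held a library whose gap to the nearest other exceeded Dixon's 95% critical value, and chance marks about 1 group in 20. Of these, 3 were in WT hypoxia replicate 2: RPL24 stood at 802 CPM (others 579.6 to 610.1), RPL7 at 687 CPM (others 521 to 533) and RPS3A at 1689 CPM (others 1071 to 1175). SNHG31 stood at 0.302 CPM in WT hypoxia replicate 3 (others 0.0482 to 0.0861). In KO, RPL39 stood at 141 CPM in replicate 3 (others 156 to 158) and RPLP2 at 313 CPM in replicate 1 (others 347 to 353).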

How the results depend on the processing

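Among alternatives for the counts of members past the thresholds, the medians and the shares, 587 values stayed within 1.5 times the count or within the spread and 98 moved. For single named members 2888 values stayed on their side of the threshold, 56 passed it, 35 lost it and 0 reversed. Protein members lower in the KO at an adjusted p numbered 57 with all 12 libraries in one fit, 74 with DESeq2 and 72 with limma-voom, against 71.

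In hypoxia, protein members called higher (0) became 1 under GC correction, RLE size factors, all 12 libraries in one fit, a filter of 10 counts, counts divided by 4, the replicate block with GC correction and upper-quartile factors, and 2 under coding length correction. Higher at an adjusted p alone (0) became 1 under GC correction and with pseudogenes added, 2 with limma-voom, 3 with DESeq2, RLE, all 12 libraries and the block with GC correction, 4 with the filter, counts divided by 4, the replicate block and upper-quartile factors, and 10 under coding length correction. Lower at an adjusted p alone (1) became 0 with TMM from non-members and upper-quartile factors, 2 under GC correction, all 12 libraries and limma-voom, and 3 with DESeq2, coding length correction, the replicate block and the block with GC correction. Hosts higher at an adjusted p alone (0) became 1 with DESeq2, GC correction, the filter, counts divided by 4, the block with GC correction and upper-quartile factors, and hosts lower (7) became 4 with upper-quartile factors. The causes were not tested.

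In KO against WT, coding length correction gave a protein median of −0.20, 0 called lower and 1 higher at an adjusted p alone; hosts higher at an adjusted p alone (0) became 1 under GC correction and upper-quartile factors, and hosts called lower (3) became 1 with the replicate block and GC correction. In KO against hypoxia, coding length correction left 2 protein members higher at an adjusted p alone. Hosts called higher there (1) became 2 without a filter and 0 with upper-quartile factors or the block with GC correction, hosts called lower (4) became 2 without a filter, and the host median was −0.14 with the filter and −0.16 with counts divided by 4. Without the fold limit, called lower became 71 protein members and 11 hosts (KO against WT), 58 and 9 (KO against hypoxia, with 2 hosts higher) and 1 and 7 (hypoxia). The KO protein share was 6.51% with pseudogenes added and also 6.51% of protein-coding counts, and the host share 0.168% of the latter.

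Leaving out each library in turn gave, in KO against WT, 68 to 76 protein members lower at an adjusted p alone, 0 to 2 called lower and 0 to 0 higher (median −0.34 to −0.28), and 8 to 12 hosts lower, 2 to 3 called lower and 0 to 1 higher (median −0.27 to −0.15). In KO against hypoxia it gave 45 to 64 protein members lower, 7 to 14 called lower and 0 to 2 higher (median −0.34 to −0.23), and 5 to 9 hosts lower, 2 to 5 called lower, 2 to 4 higher and 0 to 1 called higher (median −0.27 to −0.16). In hypoxia it gave 0 to 24 protein members lower, 0 to 1 called lower, 0 to 7 higher and 0 to 4 called higher (median −0.11 to 0.01), and 3 to 7 hosts lower, 0 to 1 called lower and 0 to 1 higher (median −0.11 to 0.016).

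Deviations of same-numbered libraries from their group means correlated at 0.33, 0.39, −0.18 and 0.09 in hypoxia and 0.19, 0.14, 0.04 and −0.37 in KO against WT (9730 genes). Correlations between differently numbered libraries were not computed, so these values cannot show whether replicate numbers pair the libraries. With the replicate block 72 protein members and 11 hosts were lower in KO against WT. Depth did not limit most members, but SNHG18, SNHG22, SNHG27, SNHG31 and RPL3L rested on few counts. Copies and pseudogenes of near-identical sequence can exchange reads.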
